A study of Canis lupus familiaris with 45 samples.

Results

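Subcutaneous fat of beagles that had eaten freely for 12 weeks was compared with that of dogs fed to hold their weight. The comparison takes all arrays labelled week 12, which are 9 of the 45 arrays of the series, 5 ad libitum and 4 control. The ad libitum dogs were animals 2, 5, 6, 7 and 8, and the control dogs were animals 1, 3, 4 and 9, all intact females 4 years old and assigned to their feeding at random. Both groups ate the same commercial diet, Purina Pro Plan Performance Formula, and fat was sampled after a night without food. The same 9 dogs were also sampled at weeks 0, 4, 8 and 24, with 1 array per dog and week, and no body weight or food intake was used here. The question is how the fat of freely fed dogs differs from that of weight-maintained dogs at this point of the feeding period.

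White fat stores energy as triglyceride in lipid droplets and releases it by lipolysis, which falls after meals and under insulin and is raised by adrenergic signals through cyclic AMP and protein kinase A. Fat cells also secrete hormones such as leptin, whose level follows the size of the fat store, and adiponectin. With overfeeding, the tissue is known to enlarge its cells, remodel its matrix and take in immune cells, to a degree that differs between species and depots.

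Values below are GCRMA levels on a log2 scale, 1 per probe set, and levels of different probe sets are not compared with each other. A level of 4 was taken as the limit of background, and 22690 of 42924 probe sets passed it on at least 4 of the 45 arrays. The arrays read as fat: ADIPOQ, the adiponectin gene, lay between 15.04 and 15.72 on the ad libitum arrays and between 15.19 and 15.89 on the control arrays, and FABP4, the fat cell fatty acid carrier, averaged 15.80 ± 0.16 in ad libitum dogs (SD, n = 5) against 15.60 ± 0.27 in control dogs (SD, n = 4). Skeletal muscle genes stood out on 1 of the 9 arrays, that of ad libitum dog 7, where the mean of 26 muscle genes was 7.75. On the other ad libitum arrays this mean was 4.20 to 4.53, and on the control arrays 4.10 to 4.49. All 9 arrays matched their labelled dog by the 100 probe sets that best separate the animals, whereas at week 8 the array labelled control dog 9 matched dog 5 and the array labelled ad libitum dog 5 matched dog 9. Those 2 arrays enter the shared fit, so results are also given without them. The 3' minus 5' level of actin, a sign of RNA degradation, averaged 2.50 ± 0.56 in the 5 ad libitum dogs against 1.94 ± 0.45 in the 4 control dogs (SD) (two-sided exact permutation p = 0.167). For GAPDH the values were 2.73 ± 0.12 and 2.62 ± 0.26 (exact permutation p = 0.413). In bulk tissue, fewer cells of a type and less RNA per cell cannot be told apart.

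At week 12 a single gene, AZGP1, passed the test across the array, and it was higher in ad libitum dogs. It was 1 of 22690 probe sets (0.00441%) past an adjusted p of 0.05 by limma's moderated test with the Benjamini-Hochberg method. At an unadjusted p under 0.05 there were 2510 probe sets (11.1%), of which 1208 (5.32%) had a positive and 1302 (5.74%) a negative difference, ad libitum minus control. The median difference over all probe sets was -0.02 and the median standard error (SE) 0.32. The 5 ad libitum arrays lay entirely above the 4 control arrays in 134 probe sets (0.591%) and entirely below them in 229 (1.01%), which is 1.6% without overlap. The labels assign the week-12 arrays to 5 batches, of which only batch 2 (ad libitum dog 6, control dog 9) and batch 4 (ad libitum dog 8, control dog 3) hold both groups. Batch was a term in the fit, and the differences within these 2 pairs are given beside the main results. The labels name single animals, so each week-12 array is a different dog. The SE of the fit pools the spread over all arrays, with repeat samples of the same dogs at other weeks.

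**Figure D1:**
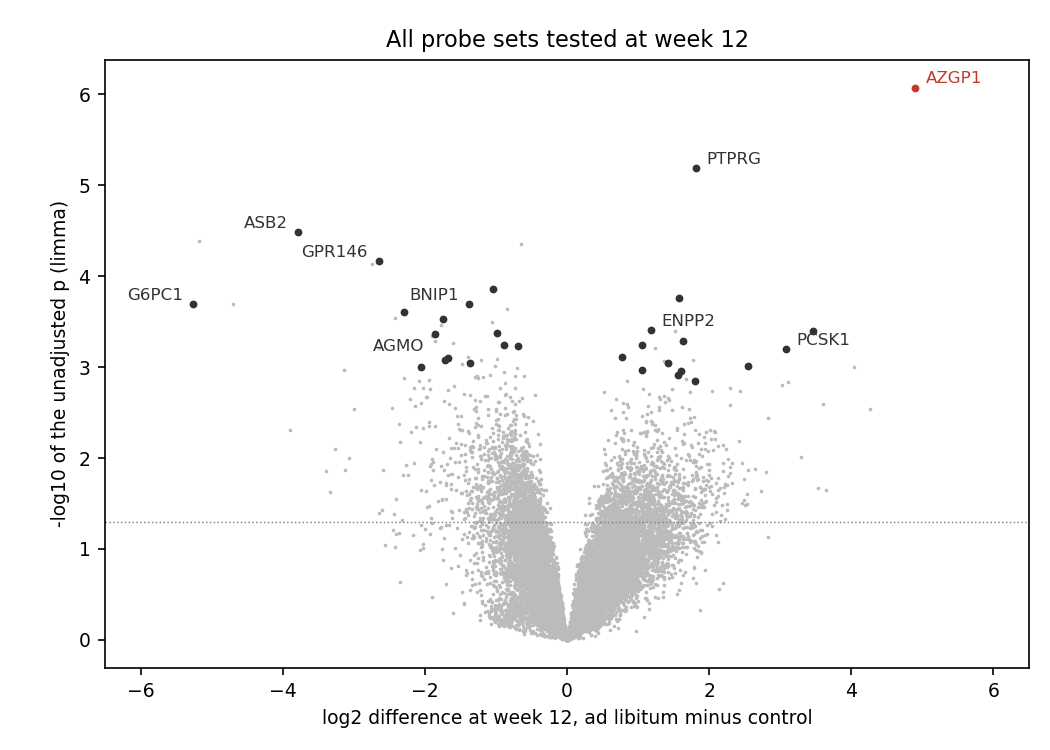
Difference at week 12 (x axis, log2, ad libitum minus control) against -log10 of limma's unadjusted p (y axis) for the 22690 probe sets tested, with dark points for the 15 genes of each sign with the smallest p and a group mean above 5 and red for AZGP1. AZGP1 lies alone at 4.90, followed by PTPRG at 1.82 and ASB2 at -3.79, and the dotted line marks an unadjusted p of 0.05.

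AZGP1 is the gene of zinc-alpha-2-glycoprotein, which fat cells and glands secrete and which is known for its link to lipid mobilisation. Its levels were 9.13, 6.99, 7.14, 8.10 and 7.30 in ad libitum dogs 2, 5, 6, 7 and 8, against 2.31, 2.33, 2.39 and 2.42 in control dogs 1, 3, 4 and 9. Every ad libitum array was far above background and every control array was below it, so the groups did not overlap. The fitted difference was 4.90 (SE 0.81, adjusted p = 0.0191, limma), in 5 of 5 dogs. Because the control arrays give only an upper limit, the difference stands for a level at least 13.3-fold higher, computed against the background limit of 4. The raw difference of means was 5.37, with a two-sided exact permutation p of 0.00794, the smallest that the splits of 9 dogs allow. AZGP1 was singled out on these same arrays, so this p is not separate support. Within batch 2 the difference was 4.72 and within batch 4 it was 4.98. A second AZGP1 probe set, near background, differed by 0.42 (unadjusted p = 0.395), with means of 3.82 and 3.44.

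The AZGP1 difference rests on a shared estimate of the spread, and its adjusted p depends on the arrays in the fit. Without the 2 week-8 arrays that match another dog, it was 5.28 (SE 0.59, adjusted p = 8.56e-06). Over 22 alternatives the difference ranged between 4.42 and 5.54 and the unadjusted p was under 0.05 in 22 of 22. The adjusted p ranged between 8.56e-06 and 0.833 and passed 0.05 in 13 of 22. It did not pass without control dog 3 (4.75) or 9 (4.74) or ad libitum dog 2 (4.42), 6 (4.90) or 7 (4.82), nor in 4 other fits, among them that without the arrays with muscle genes (4.71, adjusted p = 0.126). The number of probe sets past the threshold was 0 without control dog 3 or 9 or ad libitum dog 2 or 6. It was 7 without control dog 1, 2 without control dog 4 or ad libitum dog 5, and 3 without ad libitum dog 7.

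Before the feeding change AZGP1 was at background in all 9 dogs, with levels of 2.22 to 2.37 in the ad libitum and 2.32 to 2.35 in the control group. At week 4 it reached 6.98 to 10.17 in ad libitum dogs, against 2.33 to 2.37 in controls. At week 8 the range was 2.35 to 9.21 in ad libitum dogs, with a median of 7.57, and 2.35 to 2.47 in controls. The low ad libitum value at week 8 came from the array labelled dog 5, 1 of the 2 that match another dog, and the other, labelled control dog 9, held 2.47. By week 24 the ad libitum arrays were back at 2.32 to 2.47, and the control arrays ranged between 2.32 and 5.71, with only dog 4 above background. In the contrast of the week-12 with the week-0 difference, 0 of 22690 probe sets passed, so AZGP1 did not pass there. The week-12 difference exceeded the week-24 difference by 5.71 (SE 1.10, adjusted p = 0.0359, limma). That test passed in 9 of 19 alternatives, with a difference of 4.68 to 6.33 and an adjusted p of 0.000287 to 0.543. It did not pass without control dog 1, 3, 4 or 9 or ad libitum dog 2, 6 or 7, nor with no filter, without the arrays with muscle genes (4.68) or with actin as a covariate (5.30). Without control dog 4, the 1 control above background at week 24, the value was 4.89 (adjusted p = 0.0973). All week-24 arrays form a batch of their own.

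**Figure D2:**
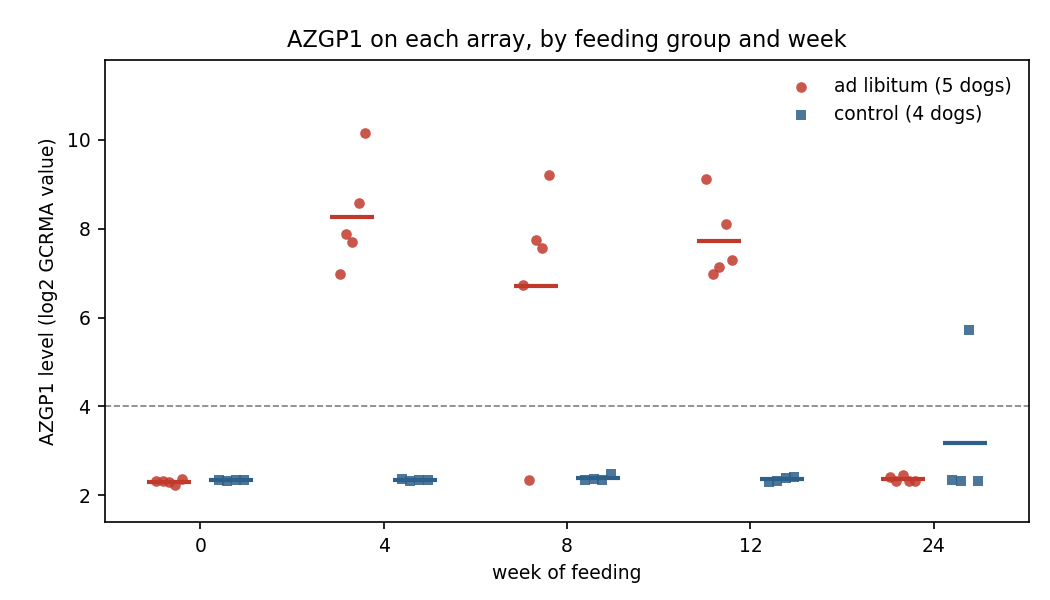
AZGP1 level (y axis, log2 GCRMA value) on each of the 45 arrays by week of feeding (x axis, weeks shown as equal steps), with red circles for ad libitum and blue squares for control dogs, bars for group means and a dashed line at the background limit of 4. At week 12 the 5 ad libitum arrays sit between 6.99 and 9.13 and the 4 control arrays between 2.31 and 2.42.

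The 15 genes of each sign with the smallest p and a group mean above 5 are given as values, since all but AZGP1 had an adjusted p of 0.0731 or more. Among the 15 genes with negative differences were enzymes and signalling proteins of metabolism. G6PC1, the catalytic subunit of glucose-6-phosphatase that releases free glucose in liver, stood at 2.75, 2.51, 2.59, 2.56 and 2.59 in ad libitum dogs, against 8.13, 10.98, 5.72 and 9.83 in controls. All 5 ad libitum arrays were at background and all 4 control arrays above it. The ratio, control over ad libitum, is thus a bound of at least 25.4-fold, with a fitted difference of -5.26 (SE 1.26, adjusted p = 0.386, limma). Within batches 2 and 4 it was -7.25 and -8.40.

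ASB2, which directs target proteins to a ubiquitin ligase, had levels of 7.76, 5.52, 5.63, 9.04 and 5.49 in ad libitum dogs, against 10.41, 11.12, 9.09 and 10.61 in controls. The groups did not overlap, with ad libitum dog 7 closest to the controls. Its difference was -3.79 (SE 0.79, adjusted p = 0.202), and 2 further probe sets of the gene gave -5.18 and -4.69. Dog 7 is also the animal whose array carried muscle genes, and without all arrays of that kind ASB2 stood at -4.03 (adjusted p = 0.276), within a range of -5.31 to -3.42 and adjusted p of 0.0178 to 0.909 over 22 alternatives.

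GPR146, a G protein-coupled receptor tied to blood cholesterol in mice, had levels of 5.12, 2.85, 3.82, 4.10 and 3.33 in ad libitum dogs, against 6.27, 7.91, 4.95 and 6.18 in controls. The highest ad libitum value, that of dog 2, was just above the lowest control value, that of dog 4. Ad libitum dogs 5, 6 and 8 were below the background limit of 4. The difference was -2.65 (SE 0.58, adjusted p = 0.239), and it was -2.36 and -4.58 within batches 2 and 4.

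PRKAR2B encodes the regulatory subunit of protein kinase A that predominates in fat cells and thereby sets the lipolytic answer to cyclic AMP. Its 3 probe sets differed by -2.29 (adjusted p = 0.397), -1.57 and -1.02. The first averaged 3.52 in ad libitum dogs, below the background limit of 4, against 5.60 in controls, so the size of its difference depends on that limit. The brightest of the 3 averaged 10.87 ± 0.59 in the 5 ad libitum dogs against 12.42 ± 0.95 in the 4 control dogs (SD).

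PSAT1, an enzyme of serine synthesis, had levels of 10.04, 8.98, 9.12, 9.44 and 9.34 in ad libitum dogs, against 11.56, 12.12, 10.25 and 11.07 in controls. The groups did not overlap. Its difference was -1.74 (SE 0.43, adjusted p = 0.419), with -1.90 and -1.86 on its other probe sets. AGMO, which cleaves ether lipids, had levels of 5.37, 4.25, 4.93, 5.39 and 4.22 in ad libitum dogs, against 7.34, 7.79, 5.83 and 6.15 in controls, again without overlap (difference -1.86, SE 0.48, adjusted p = 0.426).

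The other negative differences were -1.04 for RMND5A, a subunit of a ubiquitin ligase, -1.38 for BNIP1, a membrane fusion protein of the endoplasmic reticulum, and -0.99 for HSD17B7, an enzyme of cholesterol synthesis. PLEKHG3 stood at -1.36. None of these 4 genes overlapped between the groups. In control dogs HSD17B7 lay at 5.07 to 6.08 at week 0 and 5.90 to 7.08 at week 12. In ad libitum dogs it lay at 5.11 to 6.99 and 5.21 to 5.56 at these weeks. ACER2, a ceramidase of the Golgi, stood at -1.67, CLMN at -2.05, the zinc finger protein ZNF740 at -1.72, the Mediator subunit MED8 at -0.89 and CHRDL2, a binding protein of bone morphogenetic proteins, at -0.68, all with overlapping groups. CLMN averaged 3.62 in ad libitum dogs, below the background limit of 4. Of the 15 genes, 8 did not overlap, against 1.01% of all probe sets, and 15 had all 5 ad libitum arrays below the control mean. Among the 15 genes of positive sign, 4 did not overlap, against 0.591% of all probe sets, and 14 had all 5 ad libitum arrays above the control mean. The genes were chosen by this contrast, so nothing is read from these counts.

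**Figure D3:**
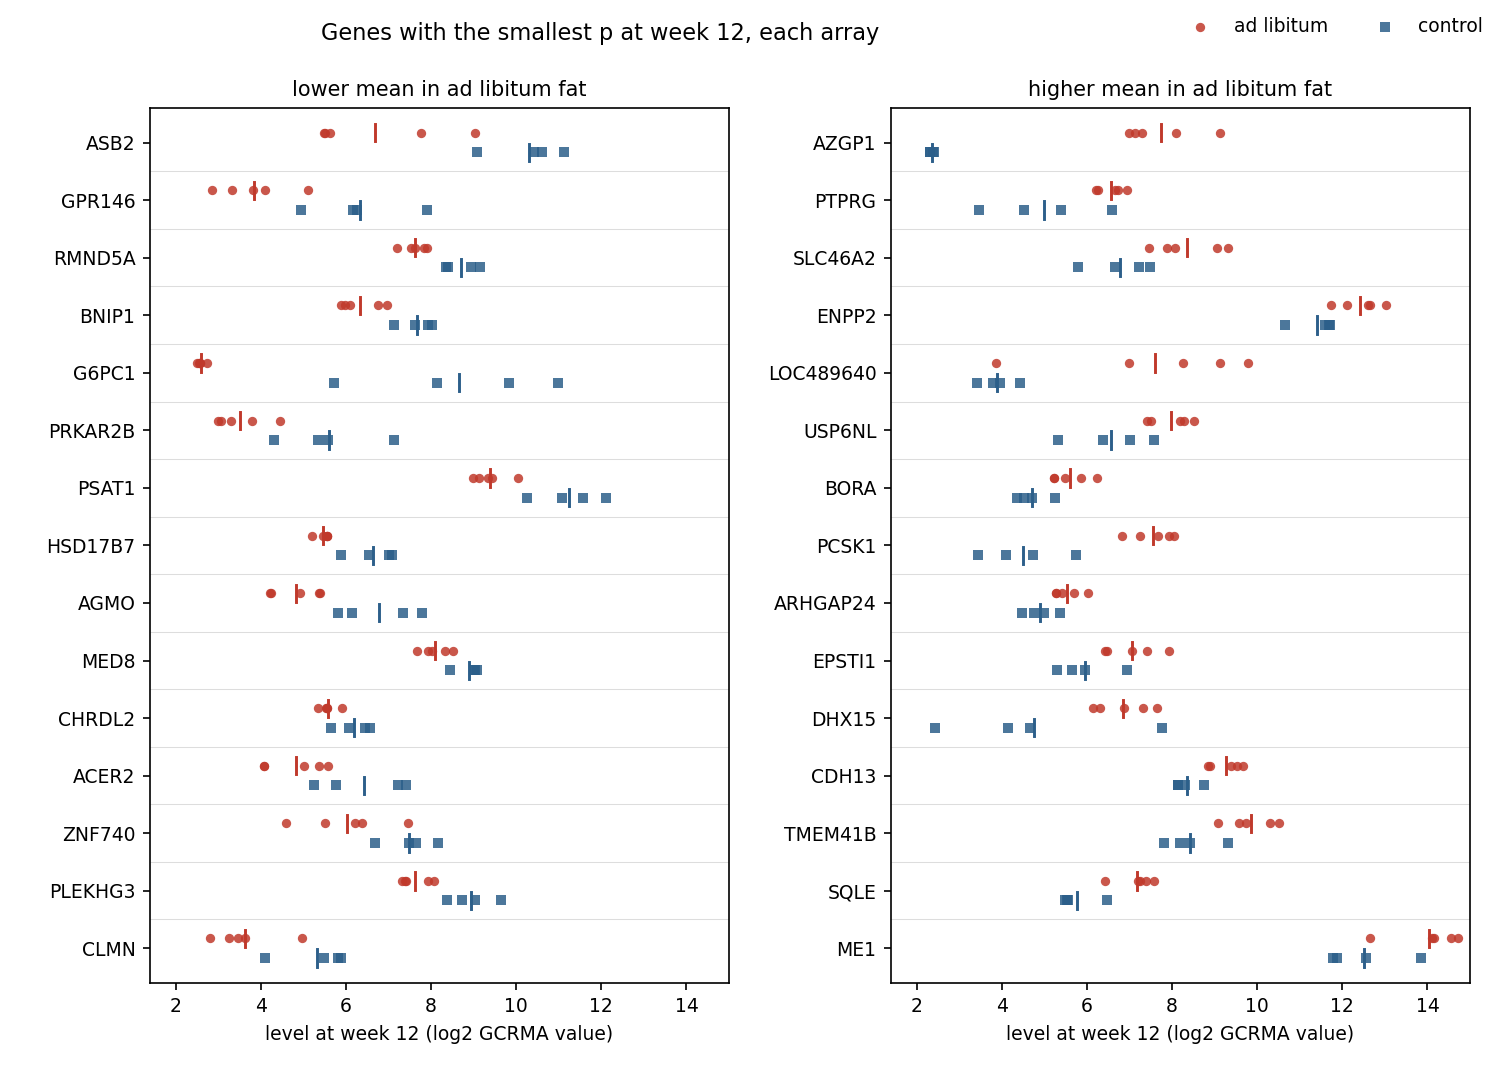
Levels at week 12 (x axis, log2 GCRMA value) of the 15 genes of smallest p with a lower mean (left panel) and the 15 with a higher mean (right panel) in ad libitum fat, 1 point per array, with red circles for ad libitum, blue squares for control and vertical bars for group means. G6PC1 lies at background on all 5 ad libitum arrays and AZGP1 on all 4 control arrays, whereas PTPRG has 1 control array among the ad libitum values and DHX15 has 1 above them.

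Among the genes with positive differences, PTPRG, a receptor-type tyrosine phosphatase, came closest to the threshold. It had levels of 6.73, 6.93, 6.25, 6.20 and 6.67 in ad libitum dogs, against 6.58, 4.53, 5.39 and 3.47 in controls. Control dog 1 lay inside the ad libitum range and the other 3 control dogs below it. Its difference was 1.82 (SE 0.34, adjusted p = 0.0731), 2.78 within batch 2 and 2.14 within batch 4, and its other probe set gave 0.75. At week 0 PTPRG lay at 6.39 to 6.85 in ad libitum and 6.28 to 6.51 in control dogs. The week-12 difference thus came with low control levels, whereas the ad libitum levels stayed near those of week 0.

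ENPP2 encodes autotaxin, a fat-secreted enzyme that makes lysophosphatidic acid. It stood at 11.73, 12.60, 12.65, 12.10 and 13.03 in ad libitum dogs, against 11.70, 10.66, 11.70 and 11.59 in controls. The groups did not overlap, by a narrow gap between ad libitum dog 2 and the controls. Its 3 probe sets gave 1.19 (SE 0.30, adjusted p = 0.426), 1.53 and 1.77.

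PCSK1, a protease that matures prohormones, had levels of 7.92, 7.68, 7.24, 6.82 and 8.05 in ad libitum dogs, against 5.73, 3.45, 4.75 and 4.10 in controls. No array overlapped, and the difference was 3.08 (SE 0.82, adjusted p = 0.437), with 1.48 on the other probe set. CDH13, or T-cadherin, which binds adiponectin, averaged 9.27 ± 0.37 in ad libitum dogs (SD, n = 5) against 8.34 ± 0.29 in control dogs (SD, n = 4), also without overlap, for a difference of 1.06 (SE 0.30, adjusted p = 0.452).

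ME1, the malic enzyme that supplies NADPH for fatty acid synthesis, had levels of 14.72, 14.10, 14.56, 12.66 and 14.15 in ad libitum dogs, against 13.86, 11.79, 12.55 and 11.87 in controls. Dog 7 of the ad libitum group was the only one below control dog 1. The difference was 1.81 (SE 0.52, adjusted p = 0.452), and 2.44 on the second probe set. SQLE, an enzyme of cholesterol synthesis, stood at 1.56, with a difference of -0.03 within batch 2 and 2.02 within batch 4.

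The remaining genes of this sign were LOC489640 (3.46), the splicing helicase DHX15 (2.54), the Rab regulator USP6NL (1.63), TMEM41B (1.60), a lipid scramblase of the endoplasmic reticulum, the solute carrier SLC46A2 (1.58), the interferon-induced EPSTI1 (1.42), the mitotic regulator BORA (1.05) and ARHGAP24 (0.77). In LOC489640, ad libitum dog 7 (3.86) lay within the control range of 3.41 to 4.42 and the other 4 lay at 6.99 to 9.78. Its control mean was 3.89, below the background limit of 4. DHX15 lay at 6.00 to 7.36 at week 0 and 6.14 to 7.64 at week 12 in ad libitum dogs. In control dogs it lay at 6.97 to 7.81 at week 0 and 2.44 to 7.76 at week 12. Outside these 15, GPLD1, a phospholipase that frees membrane-anchored proteins, had a difference of 2.04 (SE 0.60, adjusted p = 0.452). Its levels were 10.32, 8.19, 8.81, 6.46 and 6.92 in ad libitum dogs, against 5.85, 5.84, 5.33 and 5.56 in controls, without overlap.

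Without the 2 week-8 arrays that match another dog, 15 probe sets passed at week 12, 5 higher and 10 lower in ad libitum dogs. The higher ones included AZGP1 (5.28), PTPRG (1.91), ENPP2 (1.32) and PCSK1 (3.50). Lower were G6PC1 (-5.78), ASB2 (-4.08), BNIP1 (-1.53), PLEKHG3 (-1.54), RMND5A (-1.11), the PRKAR2B probe set of low signal (-2.50) and LIN7A, a scaffold protein of cell junctions named after its values were seen. The adjusted p ran to 0.0429 among the genes named here other than LIN7A, by limma. The 9 named genes other than AZGP1 and LIN7A passed in at most 3 of 22 alternatives, this one included, and their adjusted p reached 0.909 in the least favourable of them. Their direction was that of the full fit in 22 of 22 alternatives.

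Leptin, the hormone that reports the fat store, is encoded by LEP. It had levels of 12.63, 9.95, 11.29, 12.04 and 11.43 in ad libitum dogs, against 10.65, 8.56, 10.50 and 9.35 in controls. All 5 ad libitum arrays were above the control mean, but dog 5 lay inside the control range. The difference was 1.62 (SE 0.78, adjusted p = 0.452, unadjusted p = 0.0448), and it was 1.94 within batch 2 and 2.87 within batch 4. Adiponectin stood at -0.18 (SE 0.21, adjusted p = 0.719).

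Other fat cell genes followed no single sign. PLIN1, the coat protein of the lipid droplet, had levels of 9.67, 6.19, 8.95, 10.84 and 8.74 in ad libitum dogs, against 10.17, 11.07, 9.25 and 11.39 in controls. Dog 5 was the lowest and dogs 2 and 7 lay within the control range, and the difference was -1.78 (SE 0.91, adjusted p = 0.452). For PCK1, an enzyme of glyceroneogenesis, the value was -1.02, for LIPE, hormone-sensitive lipase, -0.79, and for SREBF1, a switch of lipid synthesis, -0.78. SREBF1 averaged 4.10 in ad libitum and 4.76 in control dogs, near the background limit of 4. FASN, which builds fatty acids, stood at -0.50, DGAT2, which completes triglycerides, at 0.36, SCD, which desaturates fatty acids, at 0.23, PPARG, the master factor of fat cells, at 0.56, and NPR3, the natriuretic peptide clearance receptor, at 0.86. The adjusted p of these genes was 0.475 or more. CCL2 (0.86) and CD68 (-0.31), a chemokine and a macrophage protein, UCP2 (-0.47), BMP6 (-0.48), CSTA (0.76), CDO1 (-0.23), PNPLA3 (0.25) and LPL (0.04) had adjusted p of 0.604 or more.

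Gene lists describe how families of genes lay, as counts beside the array as a whole, with no test over a list. Of 39 lists, 36 had at least 5 tested genes, each gene at its brightest probe set. Over all 9113 named genes the median difference was -0.04. AZGP1, which is in 2 lists, was the only member past the adjusted threshold, so the counts below are at an unadjusted p under 0.05. The sign of the median was the same in all 23 alternatives for 16 of the 36 lists and turned in at least 1 for the other 20. Of the 9113 genes, 46.7% had a positive difference, and 5.45% were positive and 6.11% negative at that level.

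Genes that store and release fat had mostly negative differences. In triglyceride assembly and lipid droplets 21 of 23 genes were negative, with a median of -0.48. At an unadjusted p under 0.05 there were 3 negative and 0 positive genes: CIDEC (-0.91), which enlarges droplets, GPD1 (-0.84), which makes glycerol phosphate, and DGAT1 (-0.87), which completes triglycerides. GPAM, the first enzyme of triglyceride assembly, had the highest value, 1.36 (SE 0.95). In lipolysis and its control 11 of 14 genes were negative, with a median of -0.63, and 6 were negative and 1 positive at this level.

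The members of the lipolysis list with negative values act on both sides of the process. HCAR2, the receptor by which niacin and ketone bodies curb lipolysis, stood at -2.99 (SE 0.93, unadjusted p = 0.00287), with means of 4.63 ± 1.81 in the 5 ad libitum dogs against 7.67 ± 1.04 in the 4 control dogs (SD). ADORA1 (-1.62) and PTGER3 (-1.32), receptors of adenosine and prostaglandin E2, also curb lipolysis in fat cells. PNPLA2, the lipase that starts triglyceride breakdown, stood at -1.20 (SE 0.44), and PRKAR2B at -1.57. AZGP1 was the positive one. Over the alternatives the median was -0.97 to -0.47, and that of triglyceride assembly -0.72 to -0.27. Array means of the lipolysis list were 7.58 to 9.32 in ad libitum and 8.05 to 9.19 in control dogs, which overlap. For triglyceride assembly they were 8.17 to 9.46 and 8.84 to 9.52, also with overlap. Week-0 medians were of the other sign, at 0.28 for triglyceride assembly and 0.31 for lipolysis.

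Fatty acid synthesis was split, with 11 of 19 genes positive and a median of 0.23. At an unadjusted p under 0.05 there were 5 positive and 1 negative genes. ELOVL6, which lengthens newly made fatty acids, had the largest value, 4.26 (SE 1.33), with means of 8.43 ± 2.60 in ad libitum dogs (SD, n = 5) against 4.10 ± 1.43 in control dogs (SD, n = 4). Its ad libitum dog 7 was at 3.86, below background, and its control dog 1 at 6.23, so the groups overlapped. The other control arrays lay at 3.20 to 3.52, also below background, so the size of this difference depends on that limit. ME1 (1.81), ELOVL5 (1.12), MID1IP1 (1.11) and ACSL1 (0.96), which activates fatty acids, were the other positive genes, and MLXIPL (-1.14), the carbohydrate response factor ChREBP, the negative one. The median turned to -0.17 when the 9 week-12 arrays were fitted alone with batch. At week 0, before the feeding change, the list median was already 0.27.

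In fatty acid uptake and binding, 10 of 16 genes were positive and the median was 0.06. VLDLR (-1.27), a lipoprotein receptor, and ANGPTL4 (-0.98), an inhibitor of lipoprotein lipase, were negative at an unadjusted p under 0.05, and CD36, the fatty acid transporter, stood at 1.69 (SE 0.86, unadjusted p = 0.0573). Adipocyte markers were positive in 8 of 15 genes, with a median of 0.04 that kept its sign in 14 of 23 alternatives and was -0.75 over all 28 probe sets of the list. For insulin signalling and glucose uptake 15 of 21 genes were negative, with a median of -0.12. AKT2, the insulin-responsive kinase of fat, stood at -1.73 (SE 0.53), and the glycolytic regulator PFKFB3 at -1.23 (SE 0.37).

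Mitochondrial genes had small, mostly negative values in the fit with batch. In oxidative phosphorylation 53 of 56 genes were negative, with a median of -0.29, values of -0.85 to 0.10 and 4 negative genes at an unadjusted p under 0.05. With no batch term the median was -0.12, and by plain group means 42 of the 56 were lower and 14 higher in ad libitum dogs. Without the arrays with muscle genes the median was -0.18. NDUFV3 of complex I stood at -0.85 (SE 0.36) and SDHA of complex II at -0.47 (SE 0.21). Fatty acid oxidation had 17 of 23 negative genes, a median of -0.39 and 5 at that level, among them HADH (-0.79) and ETFB (-0.73). The citric acid cycle had 14 of 21 negative genes and a median of -0.31, with SUCLG1 at -0.64 (SE 0.28). These medians ranged over the alternatives between -0.55 and -0.28 for fatty acid oxidation and between -0.50 and -0.12 for the citric acid cycle. Week-0 medians were -0.15 for oxidative phosphorylation, 0.01 for fatty acid oxidation and -0.14 for the citric acid cycle. Genes of these lists share arrays, so their common sign is not independent evidence from gene to gene. The array means overlapped, at 12.17 to 12.93 in ad libitum and 12.32 to 12.77 in control dogs for oxidative phosphorylation.

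**Figure D4:**
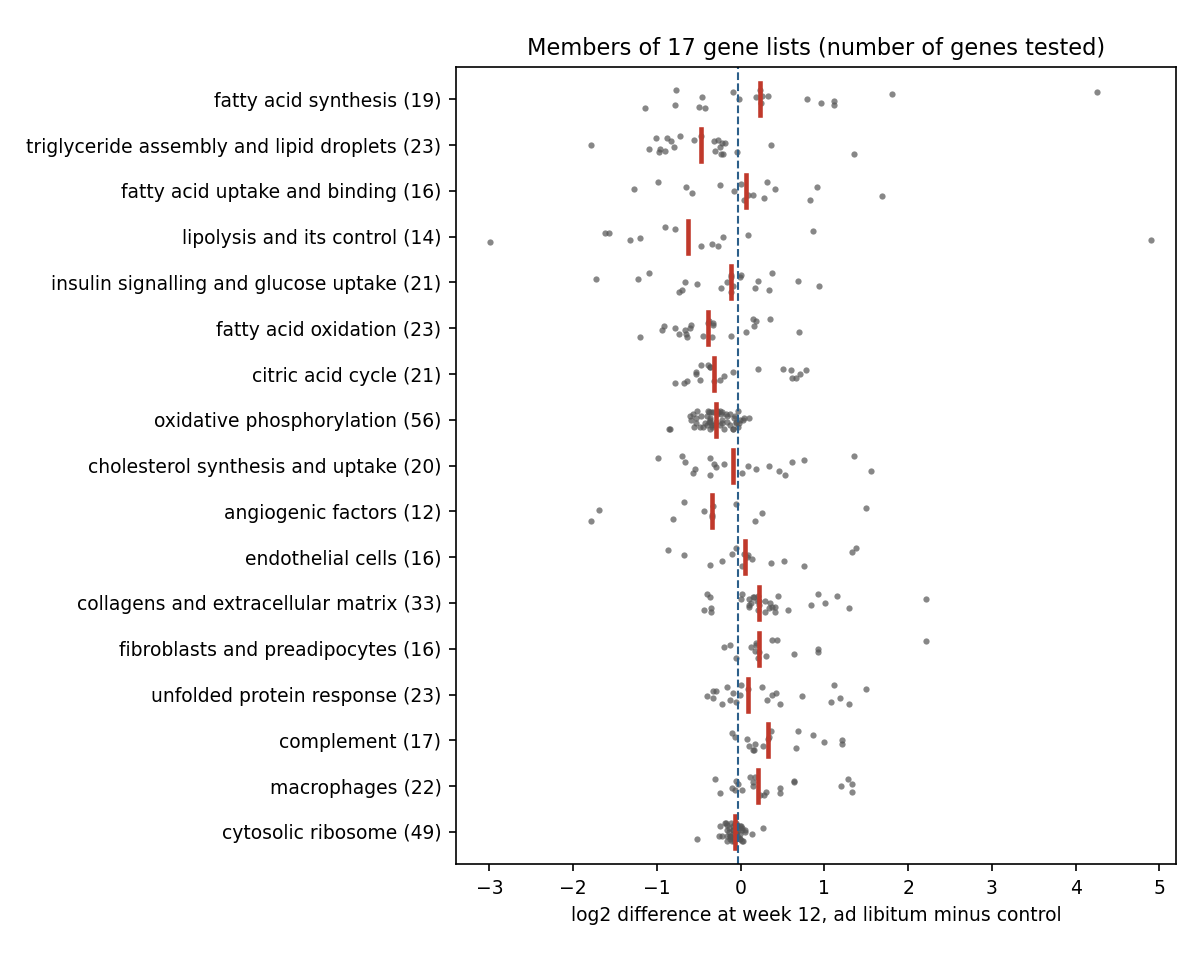
Difference at week 12 (x axis, log2, ad libitum minus control) of each tested gene (grey points, height within a row is arbitrary) in 17 gene lists, with red bars for list medians and a dashed line at the median of -0.04 over 9113 genes. Oxidative phosphorylation, triglyceride assembly and lipolysis have medians of -0.29, -0.48 and -0.63, and the highest point of the lipolysis list is AZGP1 at 4.90.

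Several matrix and immune lists had mostly positive values of small size. Among collagens and extracellular matrix 28 of 33 genes were positive, with a median of 0.22. LOX, which cross-links collagen, stood at 2.21 (SE 0.91), the basement membrane protein NID2 at 1.30 (SE 0.48) and the proteoglycan LUM at 0.92 (SE 0.44), the only 3 genes at an unadjusted p under 0.05. Complement had 15 of 17 positive genes and a median of 0.32, with CFI, a complement inhibitor, at 1.21 (SE 0.52). Its median turned to -0.06 without control dog 1. Macrophage markers had 16 of 22 positive genes, a median of 0.21 and 0 genes at that level in either direction, with MRC1, the mannose receptor, at 1.29 (SE 0.64). Cytokines, chemokines and adhesion molecules had 19 of 24 positive genes and a median of 0.28, and VCAM1, a leukocyte adhesion protein, stood at 1.05 (SE 0.48). Matrix proteases and their inhibitors were split, with 9 positive and 5 negative genes and a median of 0.07 that kept its sign in 15 of 23 alternatives.

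Vascular and stress genes were mixed. Of 12 angiogenic factors 9 were negative, with a median of -0.34. VEGFA (-0.80, SE 0.31) and VEGFD (-1.79, SE 0.72), growth factors of blood and lymph vessels, were among the 4 negative genes at an unadjusted p under 0.05, and ANGPT2, which loosens vessel walls, was the positive one (1.50, SE 0.61). Endothelial markers had a median of 0.06, of that sign in 18 of 23 alternatives, with EMCN (1.38) and PECAM1 (0.75) positive and ESAM (-0.87) and ENG (-0.68) negative at that level. The unfolded protein response had a median of 0.09 and 6 positive and 0 negative genes. They were the chaperones HSPA5 (1.12, SE 0.35), HSP90B1 (1.19), DNAJB9 (1.08) and DNAJC3 (1.50), the degradation factor SEL1L (0.73) and the stress sensor kinase EIF2AK3 (1.29), whereas XBP1 (-0.22), DDIT3 (-0.16) and ATF4 (-0.29) were not at that level. Its median turned negative without control dog 1 (-0.12), without ad libitum dog 7 (-0.003) and without the 2 week-8 arrays that match another dog (-0.005).

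Cholesterol synthesis and uptake had 10 positive and 10 negative genes, with a median of -0.09, of that sign in 19 of 23 alternatives. At an unadjusted p under 0.05, SQLE (1.56), SC5D (1.36) and MSMO1 (0.76) were positive. HSD17B7 (-0.99) and FDFT1 (-0.70), which makes squalene, were negative at that level. Among other cell types, fibroblast and preadipocyte markers were positive in 13 of 16 genes, with a median of 0.22 that turned to -0.08 without control dog 1. Markers of smooth muscle and pericytes were negative in 10 of 11, with a median of -0.36 that turned to 0.04 with no batch term. T and NK cell markers had 4 positive and 6 negative genes and a median of -0.03, which kept its sign in 14 of 23 alternatives and was 0.76 without control dog 9. The array mean of this list was 4.43 to 6.22 in ad libitum dogs, against 7.32 in control dog 9 and 4.41 to 4.91 in the other controls. Neutrophil and mast cell markers had a median of 0.12, or -0.06 without control dog 1, with the mast cell protease CPA3 at 2.26 (SE 1.04).

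The growth hormone, IGF and steroid list had a median of -0.15. IGF1, the growth factor, stood at 0.97 (SE 0.39) and STAT5B, which carries the growth hormone signal, at -1.38 (SE 0.46). The replication factor MCM2 stood at -0.65 (SE 0.14, adjusted p = 0.202), with means of 4.21 ± 0.03 in the 5 ad libitum dogs against 4.80 ± 0.46 in the 4 control dogs (SD), both near background. Proteasome genes had a median of 0.01 and cytosolic ribosome genes one of -0.07.

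Set against the other weeks, the week-12 difference passed the test only in its contrast with week 24. Compared with the week-0 difference, 0 of 22690 probe sets passed (0%), with 1213 (5.35%) at an unadjusted p under 0.05. Against week 4 the counts were 0 (0%) and 147 (0.648%), and against week 8 they were 0 (0%) and 6800 (30%). Without the 2 week-8 arrays that match another dog, 0 passed against week 8, with 4889 at an unadjusted p under 0.05. Against week 8, however, 3937 probe sets passed without the arrays with muscle genes, 4756 without control dog 1, 3939 without ad libitum dog 7 and 1035 without ad libitum dog 8. Against week 24, 8 passed (0.0353%), with 4307 (19%) at an unadjusted p under 0.05. The count was 0 once actin entered the fit as a covariate, 0 without control dog 4 and 0 without ad libitum dog 2, but 502 without ad libitum dog 5.

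Among the 8 were PFKFB3, with a difference of -1.23 at week 12 and 1.45 at week 24, and KIAA1191, with -1.10 and 2.79. TBC1D8, a Rab regulator, had 0.76 and -0.99. For ZCCHC24 the values were -0.57 and 2.30, and for the kinesin KIF5A 0.15 and -1.22, both with means below 4 at week 12 in each group. The 6 genes with a symbol, AZGP1 included, had adjusted p between 0.00246 and 0.0498 by limma, and 2 probe sets carry no symbol here.

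Several of the leading genes had differences of their own at week 4. G6PC1 stood at -5.51 at week 4, -2.10 at week 8 and 0.78 at week 24, beside -0.52 at week 0. Its ad libitum mean was 7.64 at week 0 and 3.07 at week 4, and its control mean was 8.26 at week 4 and 2.86 at week 24, in the batch that holds only that week. ASB2 stood at -2.63 at week 4 and -0.55 at week 8, GPR146 at -2.41 and -0.04, and PSAT1 at -2.22 and -0.52. Without the 2 week-8 arrays that match another dog, the week-8 differences were -3.59 for G6PC1, -1.48 for ASB2, -0.37 for GPR146 and -1.02 for PSAT1, farther from 0 in each of the 4 genes. For AZGP1 the week-8 value was 4.44 with these arrays and 5.40 without them. PTPRG stood at -0.40 at week 4, -0.51 at week 8 and 0.41 at week 24, and its week-12 minus week-8 difference was 2.33 (adjusted p = 0.0775), or 2.16 without the 2 week-8 arrays (adjusted p = 0.173). PCSK1 stood at 2.31, 1.26, 3.08 and 3.27 at weeks 4, 8, 12 and 24, and passed at week 24 (adjusted p = 0.00990), as did 5.46% of all probe sets. LEP stood at 2.00, 2.07, 1.62 and 2.70 at these weeks and also passed at week 24 (adjusted p = 0.0233). Without the 2 arrays, the week-8 differences of PTPRG, PCSK1 and LEP were -0.25, 2.80 and 3.02. The weeks share their dogs, and at week 4 the groups share no batch.

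**Figure D5:**
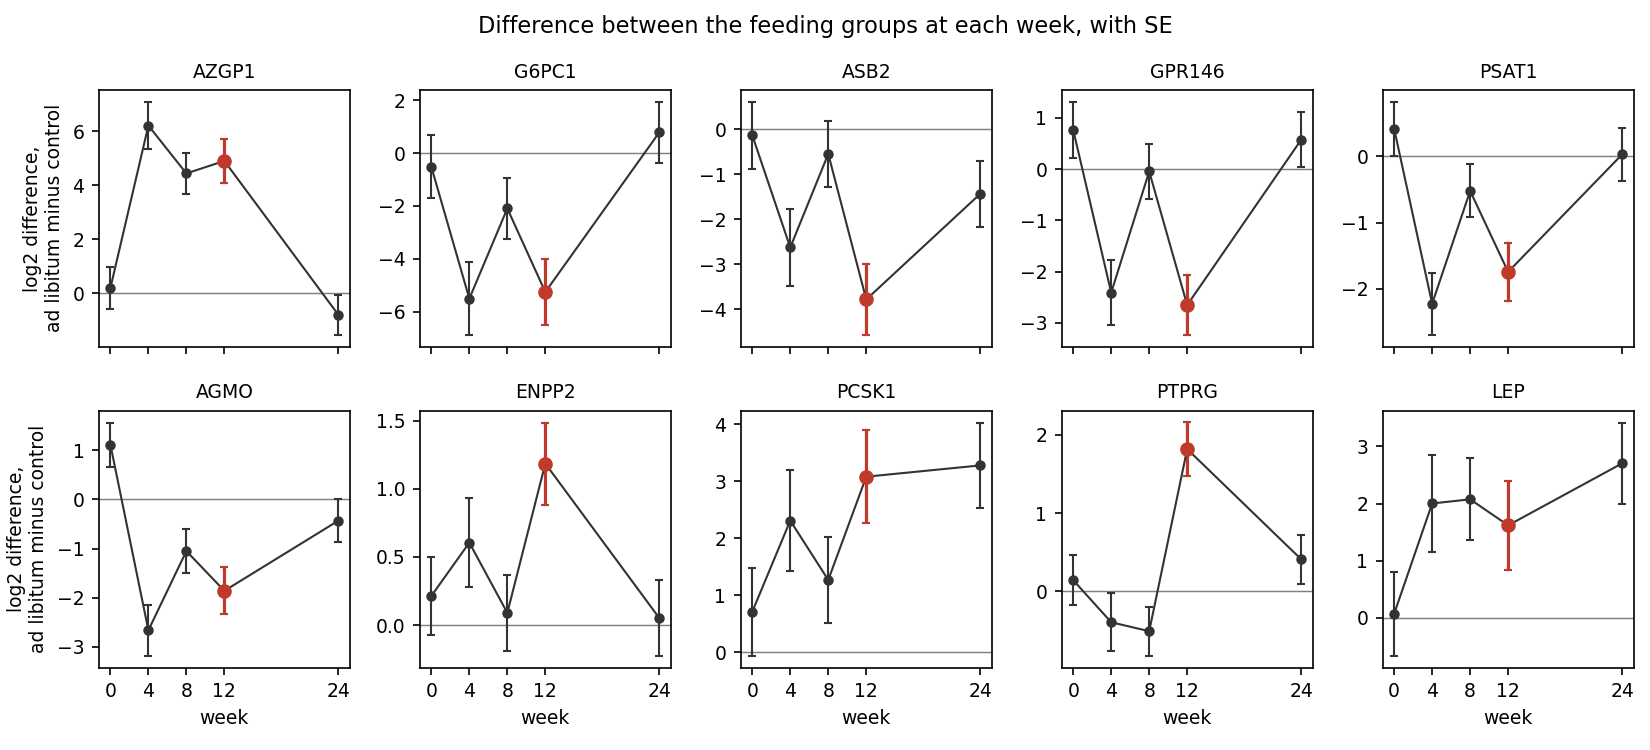
Difference between the feeding groups (y axis, log2, ad libitum minus control, scales differ between panels) at weeks 0, 4, 8, 12 and 24 (x axis, to scale) for 10 genes, with error bars for the SE of the fit and week 12 in red. All arrays are included, so the week-8 points hold the 2 arrays that match another dog. AZGP1 is high at weeks 4, 8 and 12 and stands at -0.81 (SE 0.75) at week 24, and LEP lies between 1.62 and 2.70 at the fed weeks.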

How the data were processed

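Subcutaneous fat RNA was extracted with Trizol and labelled with biotin for canine Affymetrix arrays, per the labels' protocols. The deposited values are GCRMA expression values on a scale read here as log2, since they ran from 0.42 to 17.51. GCRMA comes from the submitters' processing notes. Not given in the sources used here: its version, the log base and any filter. GCRMA shares information across arrays and pulls dim probe sets to a floor near 2.29, so differences that reach background are bounds, and precision is limited by the number of arrays.

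The 111 array controls were left out. Symbols came from the platform's annotation: of the tested probe sets 16915 had 1 symbol, 271 several and 5504 none, and 16015 were found in a RefSeq gene table. All 45 arrays were fitted in limma 3.58.1 with statmod 1.5.0 (R 4.3.3), with 10 means for group and week, a term for the labelled batch and the dog, taken from the animal id, as a block (correlation 0.00562, 31 residual degrees of freedom). Batch 6 holds week 24 only and has no term. Single values were tested by exact permutation of dogs. The fit was tested on simulated data of independent noise, without dog or batch effects or a background floor. That test could not check how the fit handles these. Alternatives changed the batch term, block, arrays, filter, scaling, RNA quality covariate and dogs.

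The text names genes past the threshold, for each sign the 15 genes of smallest p with a group mean above 5, 21 fixed genes and members of lists. DGAT1, ADORA1, PTGER3, ELOVL5, MID1IP1, SC5D, HSP90B1, DNAJC3, SEL1L, EIF2AK3, XBP1 and DDIT3 were added after their values were seen. The members, gene lists and tests were chosen with earlier results of these data known. Sequences and coordinates are not given here.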

Additional observations from a re-analysis of the deposited data

Results flagged for a closer look

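Of 204 groups of 4 or 5 week-12 values, 10 had an extreme value far from the others by Dixon's criterion, and chance flags about 1 in 20 groups (4.9% here). In the ad libitum group, these values were 3.86 for ELOVL6 and 7.75 for the muscle gene mean in dog 7 and 14.52 for LPL in dog 2. In the control group, they were 10.66 for ENPP2 in dog 3, 6.47 for SQLE in dog 9, and 6.23 for ELOVL6 and 13.35 for PPARG in dog 1. Control dog 4 was set apart with 8.45 for MED8, 12.39 for SUCLG1 and 12.03 for SDHA.

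The week-12 difference, ad libitum minus control, differed from the week-24 difference in a test of that contrast (limma, adjusted p under 0.05) by 5.71 for AZGP1, -2.68 for PFKFB3, 1.75 for TBC1D8, -3.89 for KIAA1191, -2.88 for ZCCHC24 and 1.37 for KIF5A. Week 24 and batch 6 cannot be told apart, but each difference is between groups that share that batch.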

How the results depend on the processing

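The week-12 count of 1 probe set became 0 with the 9 week-12 arrays fitted alone with batch, with weeks 0 to 12 only, with no filter and without the arrays with muscle genes, and 15 without the 2 week-8 arrays that match another dog. It was 0 to 7 with 1 dog left out. AZGP1 lost its call in the first 4 of these fits, with 4.85 (adjusted p = 0.325), 4.88 (adjusted p = 0.0631), 4.88 (adjusted p = 0.0787) and 4.71 (adjusted p = 0.126), and ranged between 4.42 and 5.54 with 1 dog left out. With no replicate block, that is with each dog's arrays treated as separate, AZGP1 stood at 4.90 (adjusted p = 0.0195) and the count was 1, and the contrast with week 24 had 7 probe sets in place of 8. The groups share no dog, so no pairing between them applies.

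Against week 0, 1 probe set passed without the 2 week-8 arrays, and 0 to 1 with 1 dog left out. Against week 8, 0 passed without the 2 week-8 arrays, 3937 without the arrays with muscle genes, and 0 to 4756 with 1 dog left out. Against week 24, 3 passed with no filter, 5 with the filter on week-12 arrays, 5 with the filter at log2 6, 4 without the arrays with muscle genes, 0 with the actin covariate and 0 to 502 with 1 dog left out. Against week 4 the count was 0 in 20 of 20 alternatives.

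Signs turned only for genes far from the threshold. With no batch term, in the full fit and in week 12 alone, BMP6 was 0.292 and LPL -0.181, and LPL was -0.066 with week 12 alone and batch. With 1 dog left out, the range was -0.757 to 0.105 for BMP6, -0.154 to 0.328 for LPL, -0.248 to 0.695 for PNPLA3, -0.641 to 0.047 for CD68 and -0.539 to 0.369 for CDO1. The cause was not tested. Over all alternatives, 11 genes gained 14 calls at week 12, and the 6 genes past the threshold against week 24 lost 62. Dim genes are limited by background.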
